A study of Mus musculus with 6 samples.

Results

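The matrix metalloproteinases (Mmp genes), the ADAMTS enzymes with their ADAMTS-like relatives (Adamts and Adamtsl genes) and the tissue inhibitors of metalloproteinases (Timp genes) were compared between mouse aortic cultures with and without Nt5e. The members were all genes of the deposited read count table whose symbol is Mmp, Adamts, Adamtsl or Timp followed by a number. This gave 51 of 25683 genes, made up of 23 Mmp, 19 Adamts, 5 Adamtsl and 4 Timp genes. The symbols alone set which genes were members, but the members and gene lists were chosen with earlier results of these data known.

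RNA was sequenced in 6 libraries from a primary mouse line labelled as smooth muscle of the aorta. Libraries 1 to 3 had the Nt5e knock-out genotype and libraries 4 to 6 were wild type. The product of Nt5e, CD73, makes adenosine from AMP outside the cell. All cultures of both genotypes were kept in 10% fetal bovine serum and then in 0.5% serum for 48 h, and 1 ug of total RNA entered a stranded poly(A) library. The labels used here give no other agent, no strain or age of the mice and no account of how the knock-out was made. They also do not say that the libraries of a genotype came from separate animals or cultures, so every p-value below measures only the spread between these libraries, which may be technical.

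Matrix metalloproteinases are zinc enzymes that are made as inactive proenzymes and cut collagens, elastin, fibronectin and other matrix proteins once their propeptide is removed. ADAMTS enzymes are secreted relatives that cleave large proteoglycans such as versican and aggrecan or trim procollagens, while the ADAMTS-like proteins lack the protease domain and associate with microfibrils. TIMPs bind and block the active sites of these enzymes. In the aortic wall the balance between the proteases and the TIMPs is known for its part in elastic fibre loss, aneurysm and remodelling after injury.

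Several Mmp genes lie side by side on chromosome 9, and their start regions carry short elements that have long been studied in this family. RefSeq promoter windows (build GRCm38.p6, 250 bases before each gene's RefSeq start were searched) matched 36 of the 51 members. That start lay 61068 bases from the deposited gene start for Adamts20, 3994 for Mmp11 and 329 for Timp2. For the other matched members it lay at most 101 bases away. The searched letters were TGAGTCA for the AP-1 element and TATAAA for the TATA box, each on both strands. The 120-base stretches below show the 3 genes of the cluster that fell in the knock-out libraries and hold both elements (Mmp3, Mmp10 and Mmp13), their neighbour Mmp27, which rose and holds neither, and Timp1 and Adamts1 as a lower and a higher member from other chromosomes. Capitals mark the matches to the AP-1 element, in either orientation, and to the TATA box.
Mmp3: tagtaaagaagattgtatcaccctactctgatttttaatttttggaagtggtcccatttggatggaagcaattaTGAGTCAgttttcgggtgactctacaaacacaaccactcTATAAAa
Mmp10: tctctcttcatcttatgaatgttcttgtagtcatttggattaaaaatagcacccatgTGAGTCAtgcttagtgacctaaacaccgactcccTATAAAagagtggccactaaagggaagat
Mmp13: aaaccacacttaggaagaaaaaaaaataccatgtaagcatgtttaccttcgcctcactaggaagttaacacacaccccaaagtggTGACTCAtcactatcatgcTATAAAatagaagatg
Mmp27: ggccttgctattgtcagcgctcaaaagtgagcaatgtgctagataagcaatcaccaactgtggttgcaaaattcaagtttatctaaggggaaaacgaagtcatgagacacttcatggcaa
Timp1: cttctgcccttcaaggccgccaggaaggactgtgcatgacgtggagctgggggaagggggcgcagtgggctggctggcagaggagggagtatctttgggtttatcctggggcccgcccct
Adamts1: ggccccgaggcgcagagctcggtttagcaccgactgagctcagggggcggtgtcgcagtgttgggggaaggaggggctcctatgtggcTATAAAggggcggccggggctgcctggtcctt

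The stretches lie on the plus strand at chr9:7445702-7445821 for Mmp3, chr9:7502222-7502341 for Mmp10, chr9:7272394-7272513 for Mmp13, chr9:7571276-7571395 for Mmp27 and chrX:20870046-20870165 for Timp1. The Adamts1 stretch lies on the minus strand at chr16:85803114-85803233. Each ends 1 base before the RefSeq start of the gene. The AP-1 letters were at bases 46 to 40 before the start in Mmp3, 63 to 57 in Mmp10 and 35 to 29 in Mmp13. Of all 32817 windows of this length, 4.46% held the AP-1 letters, against 6 of the 36 member windows (Mmp1a, Mmp1b, Mmp3, Mmp7, Mmp10 and Mmp13). All 6 belong to the 10 genes of the chromosome 9 cluster, whose windows are neighbours and partly share their ancestry, so they are not separate draws. By the test described below, the AP-1 letters were in 3 of 5 windows of members that fell, in 0 of 5 of members that rose, in 0 of 11 of members that did not pass and in 3 of 15 of members with too few reads. The TATA box letters were in 10 of 36 member windows against 12.4% of all windows, and 7 of these were again in the chromosome 9 cluster. The Sp1 (GC) box GGGCGG was in 20 of 36, against 32.7% of all windows, among them 4 of 5 higher, 1 of 5 lower and 10 of 11 tested members that did not pass. The PEA3 (ETS) element AGGAAG was in 13 of 36, against 29.5%, and the cAMP response element TGACGTCA was in 0 of 36, against 1.55%. Median GC content was 40.4% in the 5 lower and 65.6% in the 5 higher member windows. It was 62.4% in the windows of all matched members and 52.4% in all windows. The lower windows were Mmp10 (37.2%), Mmp3 (37.6%) and Mmp13 (40.4%) of the cluster, Timp1 (54.4%) and Mmp23 (61.2%). Mmp27, a higher member of the same cluster, was at 38.8%, so the ranges overlapped. The higher members Mmp2, Mmp16, Adamts5 and Adamts10 and the lower member Adamts15 had no window. A match is a description of letters, and neither binding nor use of these sites was measured.

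The libraries held 19919095 to 23669252 exon reads, of which the members took 0.917% to 1.13%. Nt5e itself had 22, 1 and 2 exon reads in the knock-out libraries and 615, 688 and 486 in the wild-type libraries, a log2 difference of -6.06 ± 0.82 (SE, edgeR adjusted p = 0.00577). Knock-out libraries 2 and 3 differed from each other by a biological coefficient of variation of only 3.66%, and wild-type libraries 4 and 6 by 3.49%. Knock-out library 1 stood apart from its own group by 46.4% and 46.9%, as far as from the wild-type libraries (45.3% to 49.7%), and wild-type library 5 stood 15.4% and 16.2% from the other wild-type libraries. In the sample titles, the number that follows the p number is 1 for these 2 libraries that stand apart and 2 for the other 4, and what it stands for is not stated. Smooth muscle markers were low, at a summed 199.98 to 733 counts-per-million (CPM) in knock-out and 178 to 229 in wild-type libraries, with Des at 4 and 2 reads and Myocd at 5 and 2 reads per genotype. Acta2 was at 73.8, 546 and 525 CPM in knock-out and 51.9 to 101 CPM in wild-type libraries, and of 7 tested markers 1 rose and 1 fell. Summed mesothelial markers were at 69.7 to 195 CPM in knock-out and 3112 to 3332 in wild-type libraries, and 9 of 9 tested fell. Summed fibroblast markers were at 4287 to 5960 and 3733 to 3867 CPM, and 2 of 8 rose. Among the smooth muscle markers, Smtn was at 82.2 to 108 and 63.6 to 74.4 CPM, and Tagln at 16.9 to 24.0 and 14.9 to 19.2 CPM. Cnn1 was the tested marker that fell (24 against 139 reads, log2 difference -2.45 ± 0.55, edgeR adjusted p = 0.0246). Mylk did not pass (-0.09 ± 0.52). Myh11 had 126 reads in knock-out and 7 in wild type. Its level was 0.216 CPM for library 1 but 2.55 and 3.56 for libraries 2 and 3, with wild-type values of 0.0463 to 0.134. The markers of the labelled cell type were therefore partly present, with Des and Myocd near 0 in both genotypes. The part of these marker differences in the results below was not tested. Endothelial markers summed to at most 6.93 CPM. Leukocyte markers summed to 22.1 to 25.3 CPM in knock-out and 60.5 to 70.4 CPM in wild-type libraries. Within that list Cd14 fell (15.8, 8.48 and 8.41 against 56.1 to 63.4 CPM) and Lyz2 rose (5.28, 14.6 and 12.2 against 1.19 to 2.68 CPM), while Ptprc, Adgre1, Itgam and Tyrobp had no reads, and of the neutrophil list S100a9, Elane, Mpo and Ly6g had none.

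Of the 51 members, 33 had enough reads to be tested, and 15 of these differed between the genotypes in the quasi-likelihood test of edgeR (adjusted p under 0.05 after Benjamini-Hochberg correction over all 12660 genes tested). The 9 that rose were Mmp16, Adamtsl3, Adamts1, Mmp2, Mmp27, Adamts5, Adamts2, Adamtsl4 and Adamts10. The 6 that fell were Mmp10, Mmp13, Adamts15, Mmp23, Timp1 and Mmp3. The members called were 45.5% of those tested, beside 27.8% of all genes tested, and in each direction 27.3% rose beside 14.1% and 18.2% fell beside 13.7%. The median log2 difference was 0.38 over the tested members and 0.02 over all tested genes, and the median size of the difference, ignoring sign, was 0.97 and 0.34. In 20 of the 33 (60.6%) the 3 knock-out CPM values did not overlap the 3 wild-type values, beside 49.7% of all tested genes. In a bulk sample, fewer cells that express a gene and less of its RNA per cell cannot be told apart. Left without knock-out library 1, the knock-out group held only the nearly identical libraries 2 and 3. In that setting 15 members rose and 11 fell, while 66.2% of all genes were called. The members gained were Mmp14, Mmp17, Mmp28, Adamts7, Adamts9 and Adamts12 (higher) and Mmp9, Timp2, Timp3, Adamtsl1 and Adamts14 (lower). With the nearly identical libraries summed, so that each genotype had 2 samples, 0 members and 17 of all 13041 genes were called by edgeR. The 15 members then all kept their direction, which summing could hardly change because the genotypes did not overlap for any of them. With the pairs summed, 10 members were at an unadjusted p under 0.05, and the smallest adjusted p of a member was 0.0821 (Mmp16). Summing by title stem instead (knock-out 1 with 2 and wild type 5 with 6) also left 2 samples a genotype, and 13 members rose and 6 fell, with 29.0% of all genes called. DESeq2 on the 6 libraries called 10 higher and 9 lower, beside 36.8% of all genes. With the last title number as a covariate, 9 rose and 8 fell, beside 35.6%.

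**Figure D1:**
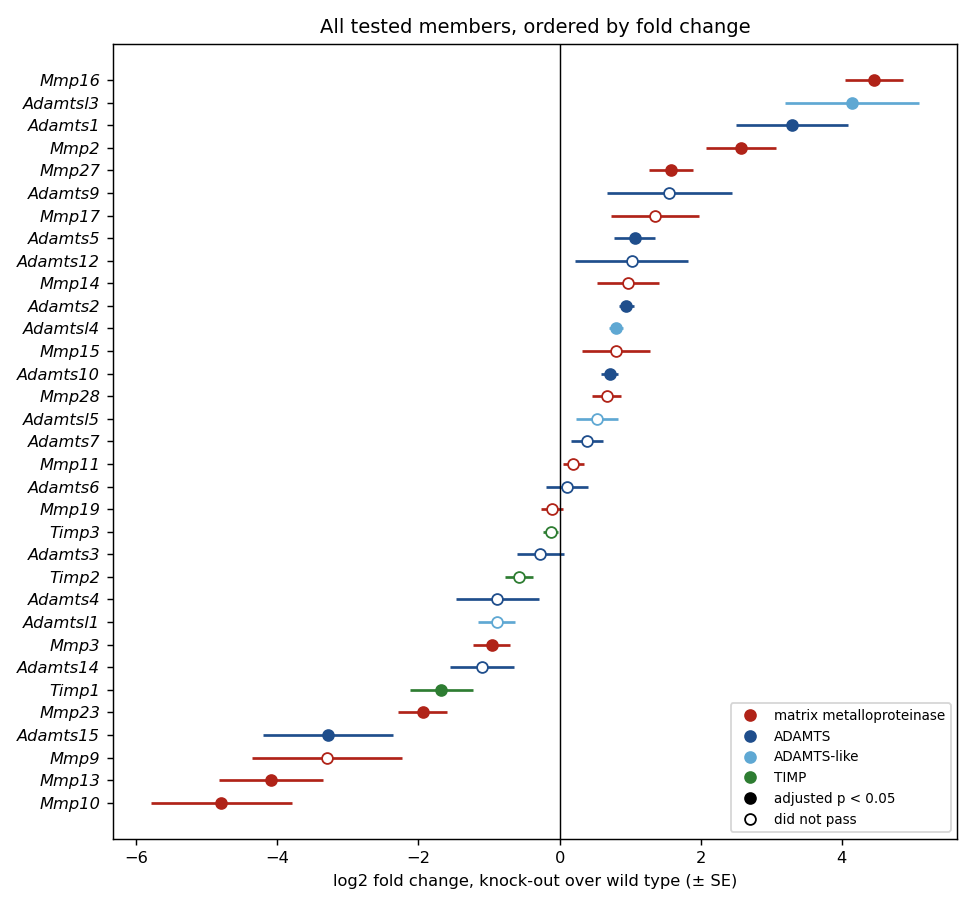
Log2 fold change of each of the 33 tested members, knock-out over wild type, with its standard error from edgeR, coloured by family and filled where the adjusted p was under 0.05. The differences ran from -4.79 for Mmp10 to 4.45 for Mmp16, and 9 filled points lie right of 0 and 6 left of it.

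The gelatinase Mmp2 and the membrane-type enzyme Mmp16 rose in the knock-out libraries. Mmp2 cleaves denatured collagen and basement membrane collagen and lies at chr8:92827291-92853420. Its CPM values in knock-out libraries 1, 2 and 3, always given in that order below, were 314, 449 and 475, beside 82.6, 27.2 and 99.0 in wild-type libraries 4, 5 and 6. Every knock-out library was above every wild-type library, and library 5 was the lowest. The log2 difference was 2.57 ± 0.49 (edgeR adjusted p = 0.0154), a 5.93-fold higher level. The call was lost when knock-out library 2, knock-out library 3 or wild-type library 4 was left out, with an adjusted p of up to 0.0656. Mmp16, a membrane-anchored enzyme that can activate the Mmp2 proenzyme, lies at chr4:17852893-18119145. It was at 31.6, 55.2 and 47.2 CPM in knock-out and 1.96, 1.15 and 3.01 CPM in wild-type libraries. No values overlapped, and the wild-type libraries held only 28 to 65 reads each. Its difference was the largest rise among the members, at 4.45 ± 0.41 on the log2 scale (adjusted p = 0.00193), and its call held with each library left out in turn (adjusted p of at most 0.0217).

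Mmp14, the main membrane-bound activator of Mmp2, did not pass. It was at 300.1, 919 and 939 CPM in the knock-out and 325, 446 and 334 CPM in wild-type libraries. Knock-out library 1 was the lowest of all 6, while libraries 2 and 3 were the highest. On the log2 scale the difference was 0.97 ± 0.44 (edgeR adjusted p = 0.150), while it was 1.33 without knock-out library 1 (adjusted p = 0.000254) and 1.07 with libraries summed by title stem (adjusted p = 0.0440). Mmp14 lies on chromosome 14 (chr14:54431612-54445364), where the median difference of 427 tested genes was 0.40 beside 0.02 over all genes, and the part of that shift in its difference was not tested. The other gelatinase, Mmp9, was at 1.34, 0.0943 and 0.0532 CPM in knock-out and 3.79, 6.91 and 4.40 CPM in wild-type libraries. The genotypes did not overlap, but knock-out library 1 held 31 reads and libraries 2 and 3 held 2 and 1. The difference of -3.29 ± 1.06 missed the threshold (adjusted p = 0.0664), and reached -5.97 without library 1 (adjusted p = 0.000132). Mmp9 also passed in DESeq2 (adjusted p = 0.00908), in limma-voom (-4.32, adjusted p = 0.0238) and in edgeR with the p number (adjusted p = 0.0456) or the last title number (adjusted p = 0.0170) as a covariate. Of the remaining membrane-type enzymes, Mmp15 (0.80 ± 0.48) and Mmp17 (1.35 ± 0.62) did not pass on the log2 scale. Mmp17 passed in edgeR with libraries summed by title stem (adjusted p = 0.0499) and without knock-out library 1 (1.79, adjusted p = 0.00138). Mmp24 and Mmp25 had too few reads.

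The stromelysins Mmp3 and Mmp10 and the collagenase Mmp13 all fell. They share the chromosome 9 cluster, which spans chr9:7272514-7699585, 427 kb, and holds 10 members. Nt5e is on the same chromosome, 80.6 Mb away. Mmp3, which cleaves proteoglycans, fibronectin and other proenzymes, had the highest mean level per length of the Mmp genes. It was at 646, 383 and 339.6 CPM in the knock-out and 847, 1001 and 811 CPM in wild-type libraries. The groups did not overlap, and knock-out library 1 lay closer to the wild-type libraries than to the other knock-out libraries. The genotypes differed on the log2 scale by -0.96 ± 0.26 (edgeR adjusted p = 0.0424). The call was lost on leaving out any library other than knock-out 1 (adjusted p of up to 0.132), and without knock-out 1 the difference was -1.30.

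Mmp10, the second stromelysin, was at 0.390, 0.236 and 0 CPM in the knock-out and 2.99, 11.4 and 3.94 CPM in wild-type libraries. Wild-type library 5 was 3.29 times the mean of libraries 4 and 6, and the knock-out libraries held 9, 5 and 0 reads. Since a count of 0 allows up to 3 reads, the level in library 3 was limited to 0.160 CPM (counting error only). The fitted log2 difference was -4.79 ± 1.00 (edgeR adjusted p = 0.0193), lost without knock-out 2 or any wild-type library (adjusted p of up to 0.0720). Mmp13, which cleaves fibrillar collagen, was at 0.996, 1.74 and 1.44 CPM in knock-out and 11.1, 48.5 and 11.5 CPM in wild-type libraries. Knock-out library 1 was the lowest of all libraries for Mmp13 but the highest knock-out library for Mmp10. Wild-type library 5 was again the highest for Mmp13, at 4.27 times the mean of libraries 4 and 6, with no overlap between genotypes. The difference was -4.09 ± 0.73 (adjusted p = 0.0126), lost without knock-out library 3 (adjusted p = 0.0528). In limma-voom, Mmp10 (adjusted p = 0.0554) and Mmp13 (adjusted p = 0.0876) missed the threshold.

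The cluster did not move as one. Mmp27, whose substrates are less known, was at 1.39, 1.65 and 1.49 CPM in knock-out and 0.535, 0.370 and 0.602 CPM in wild-type libraries. All knock-out libraries were higher, on 28 to 35 reads against 9 to 13. The log2 difference was 1.58 ± 0.32 (edgeR adjusted p = 0.0172), and the call was lost without any single library other than knock-out 1 (adjusted p of up to 0.0823). The other 6 genes of the cluster were not tested. Mmp1a and Mmp20 had no reads. Mmp7 had 5 reads, all in wild-type library 6, and Mmp8, Mmp12 and Mmp1b had 3, 8 and 6 reads in all. The median log2 difference of the 715 tested genes of chromosome 9 was -0.11.

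Among the other metalloproteinases, Mmp23 fell and 3 did not pass. Mmp23, a membrane-anchored enzyme, lies at chr4:155650655-155653384. It was at 1.56, 2.07 and 3.46 CPM in knock-out and 7.49, 10.9 and 8.76 CPM in wild-type libraries. The groups were apart on 36 to 65 against 168 to 266 reads. On the log2 scale the difference was -1.94 ± 0.34 (edgeR adjusted p = 0.0120), lost without knock-out 2 or wild-type 6 (adjusted p of up to 0.0519). Mmp28, known as epilysin, was at 14.3 to 22.7 CPM in knock-out and 11.2 to 13.4 CPM in wild-type libraries, apart in every library but short of the threshold (0.67 ± 0.20, adjusted p = 0.0569). It passed in DESeq2 (adjusted p = 0.0214), with title stems summed (adjusted p = 0.0393) and with the last title number as a covariate (adjusted p = 0.0172). Without knock-out library 1 it also passed (0.85, edgeR adjusted p = 0.000405). Mmp11 and Mmp19 did not pass, with log2 differences of 0.19 ± 0.15 and -0.11 ± 0.16.

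The ADAMTS enzymes that cleave versican and aggrecan did not move one way: Adamts1 and Adamts5 rose and Adamts15 fell. Adamts1 and Adamts5 are neighbours on chromosome 16, separated by 53.1 kb. Adamts1 (chr16:85793827-85803113) was at 68.5, 497 and 527 CPM in the knock-out and 28.5, 53.3 and 29.4 CPM in wild-type libraries. No values overlapped, but knock-out library 1 lay far nearer to the wild-type libraries, and the mean of libraries 2 and 3 was 7.48 times its level. The genotypes differed on the log2 scale by 3.30 ± 0.79 (edgeR adjusted p = 0.0294), with a call lost on leaving out any library other than knock-out 1 (adjusted p of up to 0.117). Adamts5 (chr16:85856173-85901828), a main aggrecanase, was at 253, 458 and 464 CPM in knock-out and 212, 136 and 214 CPM in wild-type libraries. Library 1 again lay nearest to the wild type, just above its range. The difference was 1.06 ± 0.29 (adjusted p = 0.0438), lost in the same way (up to 0.130), and with total-count scaling (0.95, adjusted p = 0.0502).

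Adamts15, another versican-cleaving enzyme, lies at chr9:30899155-30922452. It was at 6.80, 0.801 and 0.585 CPM in knock-out and 27.5, 25.5 and 27.6 CPM in wild-type libraries. The wild-type libraries were close together, and knock-out library 1 held 157 reads where libraries 2 and 3 held 17 and 11. The fitted log2 difference was -3.28 ± 0.92 (edgeR adjusted p = 0.0453), and -5.26 without library 1. The call was lost on leaving out any other library (adjusted p of up to 0.127). Adamts9, a versicanase with a wide gap among the knock-out libraries, was at 13, 208 and 195 CPM against 44.5, 49.9 and 47.0 CPM in wild type. Library 1 was below every wild-type library and libraries 2 and 3 were above, and the difference of 1.56 ± 0.89 did not pass (adjusted p = 0.233). It passed with libraries summed by title stem (1.67, adjusted p = 0.0277) and was 2.09 without library 1 (adjusted p = 2.16e-06). Adamts4 was at 3.07 to 12.6 CPM in knock-out and 10.8 to 24.8 CPM in wild-type libraries, and its difference did not pass (-0.88 ± 0.58, adjusted p = 0.295).

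Of the procollagen-trimming enzymes, Adamts2 rose with little spread. It removes the amino propeptide of fibrillar procollagens and lies at chr11:50602084-50807573. It was at 295, 342 and 370.3 CPM in the knock-out and 184, 166 and 174 CPM in wild-type libraries. All 3 knock-out libraries, library 1 included, were above all wild-type libraries. The log2 difference was 0.94 ± 0.11 (edgeR adjusted p = 0.00357), and the call held with each library left out (adjusted p of at most 0.0278). Its relatives Adamts3 (-0.27 ± 0.33) and Adamts14 (-1.10 ± 0.46, adjusted p = 0.122) did not pass. The COMP-cleaving enzymes Adamts7 (0.38 ± 0.22) and Adamts12 (1.02 ± 0.80) did not pass either. In edgeR without knock-out library 1, Adamts14 (-0.75, adjusted p = 0.0373), Adamts7 (0.56, adjusted p = 0.0122) and Adamts12 (1.53, adjusted p = 0.000525) passed. Adamts10, an enzyme linked to fibrillin microfibrils, was at 105, 126 and 125 CPM in knock-out and 75.2, 63.6 and 78.9 CPM in wild-type libraries. The groups were apart in every library. The difference was 0.71 ± 0.12 (adjusted p = 0.0104), lost only without wild-type library 4 (adjusted p = 0.0525). Adamts6, its close relative, did not pass (0.11 ± 0.30).

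The ADAMTS-like proteins have no protease domain, and 2 of the 4 tested rose while none fell. Adamtsl3 (chr7:82335694-82614450) was at 374, 417 and 403 CPM in the knock-out and 29.9, 2.10 and 35.5 CPM in wild-type libraries. The knock-out libraries agreed closely, library 1 included, and wild-type library 5 was 15.6 times lower than the mean of libraries 4 and 6. On the log2 scale the difference was 4.15 ± 0.95 (edgeR adjusted p = 0.0253), lost without knock-out 2 or 3 or wild-type 4 or 6 (adjusted p of up to 0.0935). Adamtsl4, a microfibril-associated protein known from the lens zonule, was at 49.4, 58.8 and 61.4 CPM in knock-out and 31.5, 34.0 and 32 CPM in wild-type libraries. The groups were apart with narrow spread. The difference of 0.80 ± 0.10 (adjusted p = 0.00487) held with each library left out (adjusted p of at most 0.0362). Adamtsl1 was lower in every knock-out library but missed the threshold (-0.89 ± 0.26, adjusted p = 0.0526), which it passed in DESeq2 (adjusted p = 0.0280), with unique exon reads (adjusted p = 0.0492), with total-count scaling (adjusted p = 0.0493) and with at least 50 reads in 3 libraries (adjusted p = 0.0456). Without knock-out library 1 it also passed (-1.02, edgeR adjusted p = 0.0122). Adamtsl5 did not pass (0.53 ± 0.30), and its highest value, 49.1 CPM, was in knock-out library 1.

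**Figure D2:**
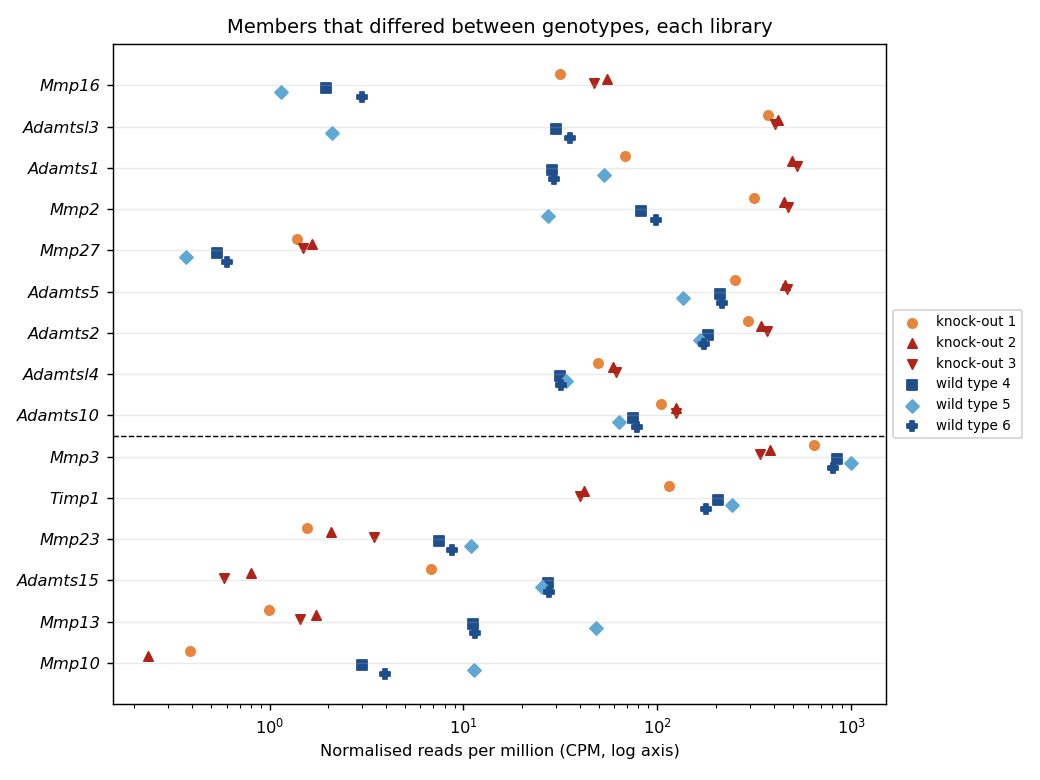
CPM values on a log axis in each of the 6 libraries for the 15 members that passed the test, each library with its own marker, knock-out libraries in orange and red and wild-type libraries in blue; the dashed line parts higher from lower members. The genotypes do not overlap for any of the 15, and the value of 0 for Mmp10 in knock-out library 3 cannot be drawn on a log axis.

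Of the inhibitors, Timp1 fell, Timp2 and Timp3 did not pass, and Timp4 had 6 reads in all. Timp1, a secreted inhibitor induced by serum and cytokines in many cells, lies at chrX:20870166-20874735. It was at 114, 41.7 and 40.0 CPM in knock-out and 206, 243 and 178 CPM in wild-type libraries. Library 1 lay between the other knock-out libraries and the wild type, and no values overlapped. The genotypes differed on the log2 scale by -1.68 ± 0.45 (edgeR adjusted p = 0.0399), lost on leaving out any library other than knock-out 1 (adjusted p of up to 0.119). Timp2, which blocks Mmp2 and also takes part in its activation on the cell surface, was at 4120.4, 2664 and 2659 CPM in knock-out and 4403, 5062 and 4588 CPM in wild-type libraries. Every knock-out library was lower, library 1 only slightly. Its difference of -0.57 ± 0.20 missed the threshold in edgeR (adjusted p = 0.0841) and passed in DESeq2 (-0.58, adjusted p = 0.0185) and in edgeR with the last title number as a covariate (-0.60, adjusted p = 0.0211). Without knock-out library 1 it also passed (-0.82, edgeR adjusted p = 8.83e-05). Timp3, the matrix-bound inhibitor that also blocks ADAMTS enzymes, was at 3349, 2851 and 2804 CPM in knock-out and 3254, 3325 and 3233 CPM in wild-type libraries. Library 1 was the highest of all 6 and libraries 2 and 3 the lowest. The difference was -0.12 ± 0.11 (adjusted p = 0.421), and -0.22 without library 1 (edgeR adjusted p = 0.00305). Timp1 and Timp3 lie inside the genes Syn1 and Syn3, which run on the opposite strand and had at most 171 exon reads per genotype.

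Levels were compared between genes as the deposited RPKM (reads per kilobase of exon per-million mapped reads). Timp2 led with a mean of 736 RPKM in knock-out and 1147 in wild-type libraries, and Timp3 followed with 550.1 and 631. Mmp3 had 231 and 469 RPKM, Timp1 67.8 and 224, Mmp14 140.3 and 77.1, and Mmp2 120.3 and 21.6. The next 4 by mean level were Adamts1 (62.8 and 6.89 RPKM), Adamtsl3 (49.3 and 2.96), Adamts2 (33.3 and 18.4) and Adamts5 (32.5 and 16.6). The summed Timp level exceeded the summed Mmp level in every library. Summed over the family, the Mmp genes had 539 to 553 RPKM in knock-out and 587 to 713 in wild-type libraries, and the Timp genes had 1137 to 1775 and 1935 to 2126. The Adamts genes summed to 90.4, 206 and 214 RPKM in knock-out and 71.6 to 74.0 in wild-type libraries. The Adamtsl genes summed to 72.4 to 82.7 RPKM against 19.7 to 22.5, which rested mainly on Adamtsl3.

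**Figure D3:**
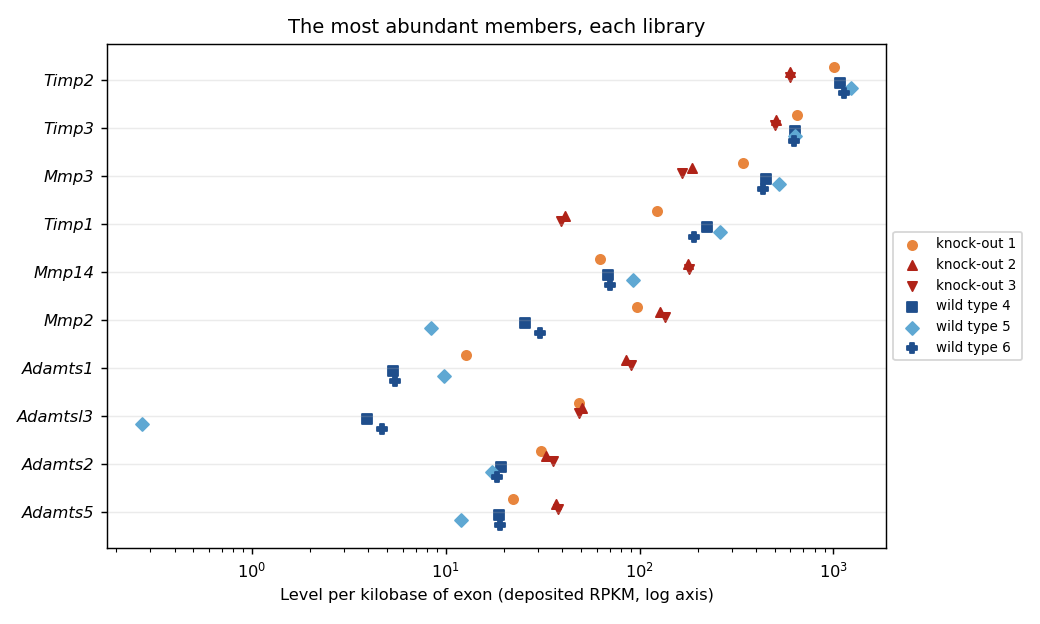
Deposited RPKM on a log axis of the 10 members of highest mean level, ordered by that mean, with a marker for each library (knock-out in orange and red, wild type in blue). Timp2 and Timp3 have the highest values in all 6 libraries, and Mmp2 shows the knock-out libraries at 97.2 to 136 RPKM above the wild-type libraries at 8.37 to 30.8.

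The make-up of the Mmp transcripts differed more than their sum. Mmp3 made up 61.7%, 34.0% and 30.7% of the summed Mmp RPKM in knock-out libraries 1, 2 and 3, and 73.6% to 75.4% in wild-type libraries. Mmp2 made up 17.6%, 23.3% and 25.1%, against 1.17% to 5.26%. Mmp14 made up 32.2% and 33.6% in libraries 2 and 3 but 11.3% in library 1, just below the wild-type range of 11.4% to 13%. In all knock-out libraries a larger share therefore came from Mmp2 and a smaller share from Mmp3. The ratio of summed Timp to summed Mmp RPKM was 3.21, 2.09 and 2.11 in knock-out and 2.98 to 3.32 in wild-type libraries, so that only libraries 2 and 3 lay below the wild type. The ratio of Timp2 to Mmp2 RPKM was 10.4, 4.69 and 4.42 in knock-out and 36.6 to 147 in wild-type libraries, with no overlap. These sums and ratios were not tested.

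Knock-out library 1 did not follow the other knock-out libraries for every member. It was nearer to the wild-type mean for 16 of the 33 tested members (48.5%, beside 54.4% of all tested genes) and nearer to libraries 2 and 3 for 17. Among the 15 called members, 5 were nearer to the wild type in library 1, namely Adamts1, Adamts5, Adamts15, Mmp3 and Timp1. The other 10 were nearer to libraries 2 and 3, with Adamtsl3, Mmp16, Mmp2, Mmp13 and Mmp10 the farthest from the wild type. Library 1 was the lowest of all 6 libraries for 8 of the 33 tested members and the highest for 3 (Timp3, Mmp15 and Adamtsl5). Among all tested genes, library 1 was the lowest for 23.03% and the highest for 23.93%. The widest gaps among knock-out libraries were for Mmp9, at 18.2 times the mean of libraries 2 and 3 in library 1, and for Adamts9, Adamts12 and Adamts1, at 15.5, 10.9 and 7.48 times lower in library 1. For Adamts15, library 1 was at 9.80 times the mean of libraries 2 and 3.

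**Figure D4:**
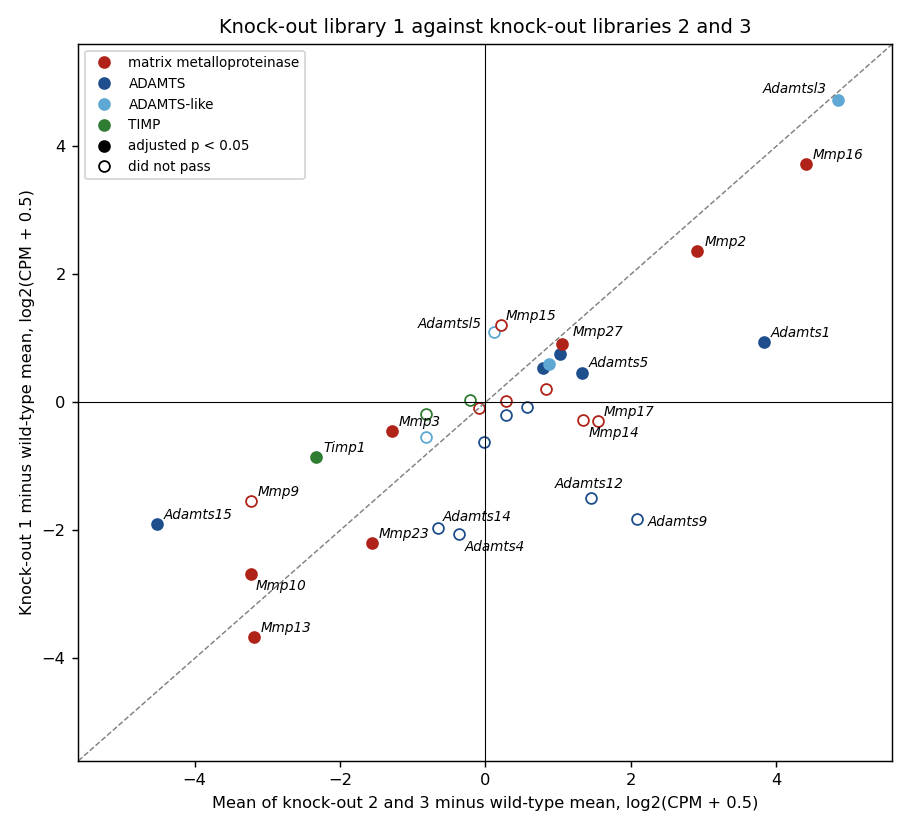
Difference from the wild-type mean in log2(CPM + 0.5) for knock-out library 1 (vertical axis) against the mean of knock-out libraries 2 and 3 (horizontal axis), 1 point per tested member, filled where the edgeR test passed. Points on the dashed line moved equally, Adamtsl3, Mmp16 and Mmp2 lie near it, and Adamts1 and Adamts9 lie far below it.

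Wild-type library 5 stood at least 2-fold from the mean of libraries 4 and 6 for 6 tested members, and 4.19% of all tested genes did so. It was above them for Mmp13, Mmp10 and Adamts4 and below them for Adamtsl3, Mmp2 and Mmp16. For Mmp10 and Mmp13, which fell in knock-out libraries, library 5 was the wild-type library farthest from the knock-out level. The same held for Adamtsl3, Mmp2 and Mmp16, which rose. Without library 5 the log2 differences of these 5 called genes kept their sign, but Mmp10 lost its call (edgeR adjusted p = 0.0667). In all, 6 members then rose and 2 fell, beside 6.43% and 6.60% of all genes tested.

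Intron reads gave a separate count of the same genes in the same libraries. Of the 27 members with enough intron reads, 9 passed (33.3%, beside 12% of all 10653 genes tested this way), 6 higher and 3 lower, where 4.98% and 7.03% of all genes were higher and lower. Of the 15 members called in exon reads, 12 could be tested, 12 had the same sign and 8 passed. The intron log2 differences were 3.83 ± 0.34 for Adamtsl3, 2.92 ± 0.61 for Adamts1, 2.33 ± 0.45 for Mmp2, 1.26 ± 0.24 for Adamtsl4, 0.68 ± 0.15 for Adamts10, -1.48 ± 0.37 for Mmp23 and -1.66 ± 0.34 for Timp1. For these 7 the exon and intron values were of like size. Mmp16 was the exception among the largest, with 1.74 ± 0.28 in intron reads (52, 94 and 87 reads against 19, 33 and 17) beside 4.45 in exon reads. The difference between the exon and intron values was not tested. Adamts2 had 0.25 ± 0.13 in intron reads (edgeR adjusted p = 0.286) beside 0.94 in exon reads, and Adamts5 had 1.09 ± 0.31 (adjusted p = 0.0572).

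Adamts7 passed in intron reads only, at -0.80 ± 0.21 (edgeR adjusted p = 0.0396), while its exon value was 0.38 ± 0.22. It held 32, 35 and 31 intron reads in knock-out and 50, 70 and 51 in wild-type libraries. The gene lies 1.79 Mb from Nt5e at chr9:90163069-90208071 and shares 6045 bases with Tbc1d2b on the opposite strand. Tbc1d2b had 5085, 2556 and 2424 exon reads in knock-out and 8793, 9591 and 8268 in wild-type libraries (-1.32 ± 0.24, adjusted p = 0.0137). The sources used here do not state whether strand entered the deposited counts. Without it, reads of this pair in the shared stretch cannot be told apart. Mmp14 had by far the most intron reads of the members, 16514 in knock-out and 9586 in wild-type libraries, and did not pass (0.76 ± 0.30).

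**Figure D5:**
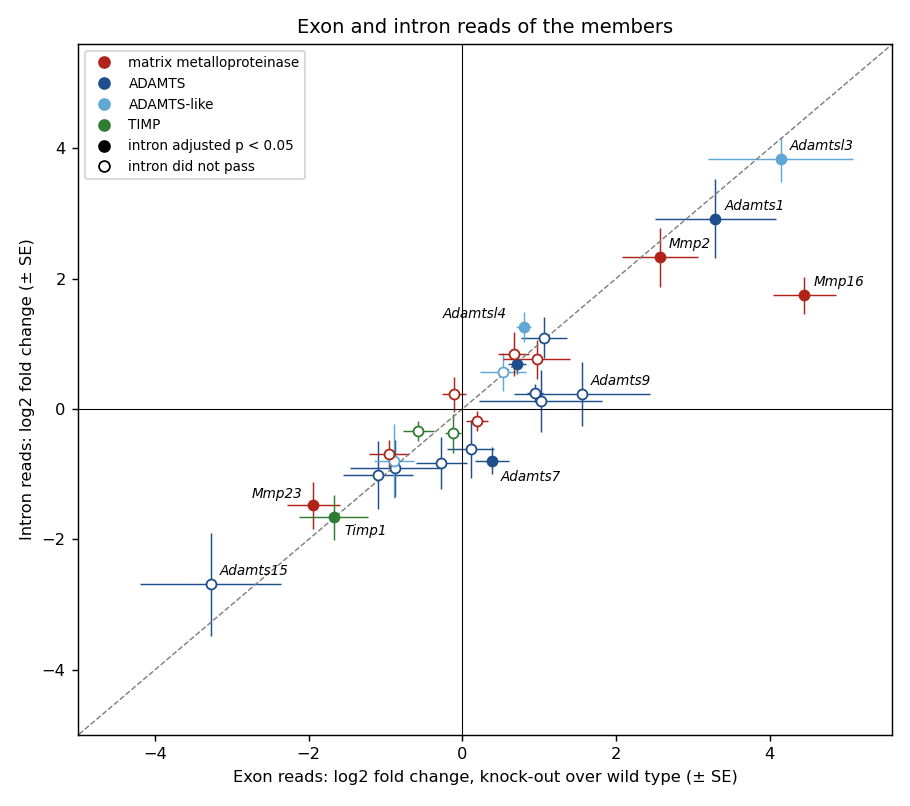
Log2 fold change in intron reads (vertical) against exon reads (horizontal), each with its standard error, for the members tested in both, filled where the intron test passed. Most points lie near the dashed line of equal values, and Mmp16 lies below it at 1.74 in intron reads.

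The 18 members below the filter on low counts had at most 22 exon reads each over the 6 libraries, and 5 had none (Mmp1a, Mmp20, Mmp21, Adamts18 and Adamts19). A count of 0 allows a level of up to 0.123 to 0.160 CPM, depending on the library, and that limit covers counting error only. Mmp24 had 11 reads in each genotype. Adamts16 had 10, 0 and 9 reads in wild-type libraries 4, 5 and 6 and none in the knock-out libraries, and Mmp25 had 8 and 1 reads in wild type and knock-out. Adamts8, which lies 20.1 kb from Adamts15, had 8 reads in knock-out and 7 in wild-type libraries. The others had 8 reads or fewer each, too few to show a difference.

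Genes that act with these enzymes were taken from 6 lists, in which 40 of 117 tested genes passed, 34.2% beside the 27.8% of all genes. Of 25 tested inhibitors and regulators of metalloproteinases, 6 rose and 2 fell (32% called), with a median log2 difference of 0.45. Bsg, which encodes the metalloproteinase inducer basigin, rose by 0.79 ± 0.13 (edgeR adjusted p = 0.00966), and Cav1, the caveolar coat protein, by 1.51 ± 0.15 (adjusted p = 0.00262). Thbs1, a matrix glycoprotein that binds several of these enzymes, rose by 0.92 ± 0.19. Plaur, the urokinase receptor, was at -1.62 ± 0.23. Lcn2, a lipocalin that forms a complex with Mmp9, was at 1.69, 0.0471 and 0.160 CPM in knock-out and 45.3, 75.8 and 38.5 CPM in wild-type libraries. Lcn2 was thus far lower in every knock-out library, at -6.32 ± 0.94 (adjusted p = 0.00738).

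Of 19 tested ADAM and astacin metalloproteinases, 6 rose and 2 fell (42.1% called, median 0.21). Adam15 (0.69 ± 0.10), Ece1 (1.02 ± 0.15) and Adam33 (1.94 ± 0.40) rose. Adam17, the main sheddase of tumour necrosis factor, fell (-0.57 ± 0.10, edgeR adjusted p = 0.0132), as did the neutral endopeptidase gene Mme. Mme had 1 read in the knock-out libraries, and 15.5 CPM in wild-type library 5 beside 0.936 and 1.44 in libraries 4 and 6. Of 17 tested cathepsins and other matrix proteases, 2 rose (Htra1 and Htra3) and 2 fell (Dpp4 and Ctsc), with a median of 0.22. The 23.5% called here was close to the 27.8% of all genes.

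Substrates of the enzymes were split into 2 lists. Of 23 tested proteoglycan and elastic fibre genes, 8 rose and 1 fell (39.1% called), with a median log2 difference of 0.63. Eln, the elastin gene, was at 13.3, 20 and 21.1 CPM in knock-out and 4.46, 2.55 and 5.05 CPM in wild-type libraries. All knock-out libraries were higher, by 2.17 ± 0.32 (edgeR adjusted p = 0.00704). Nid1, a basement membrane linker, rose by 2.53 ± 0.26 and Fbln5, an elastic fibre assembly protein, by 1.44 ± 0.16. Fbln1, a fibulin that binds versican and is a cofactor of Adamts1, was at -4.24 ± 0.28. Of 16 tested collagens, 2 rose (Col5a1 and Col11a1) and 2 fell (Col4a3 and Col7a1), with a median of 0.33. The 25% called was also close to the 27.8% of all genes. Summed collagen CPM was 4297 in knock-out library 1 and 16117 and 18032 in libraries 2 and 3, beside 6440.0 to 6766 in wild type, so library 1 was below and the others above.

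Of 17 tested AP-1, ETS and RUNX factors, whose binding letters were searched above in part, 5 rose and 2 fell (41.2% called, median 0.32). Fosl2, a subunit of AP-1, was at 322, 173 and 165 CPM in knock-out and 690.2, 645 and 655 CPM in wild-type libraries. All knock-out libraries were lower, and library 1 was the nearest to the wild type. The fitted log2 difference was -1.59 ± 0.28 (edgeR adjusted p = 0.0115). Ets2 also fell (-0.95 ± 0.09), while Fli1 (2.63 ± 0.34), Etv1 (3.27 ± 0.53) and Ets1 (1.00 ± 0.19) rose. No binding of these factors was measured.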

How the data were processed

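Poly(A) RNA of 3 Nt5e knock-out and 3 wild-type libraries was analysed from 1 table of the whole series. Per the file headers, the authors deposited for each gene and library whole-number exon, intron and junction read counts, the exon length in bases, and RPKM values. The build was GRCm38 (mm10), per the submitters' processing notes, while aligner, counting tool and strand use were not given in the sources used here. The members and gene lists were chosen with earlier results of these data known. Gene coordinates were the same in GENCODE M21 for all 51 members.

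Exon reads of all genes were fitted with edgeR 4.0.16 in R 4.3.3 (filterByExpr with a minimum count of 10, TMM scaling, quasi-likelihood F test, genotype as the only term, Benjamini-Hochberg adjustment over all 12660 genes tested, threshold 0.05), and intron reads in the same way. CPM values are exon counts-per-million after TMM scaling, without a pseudocount. Fold changes are log2, knock-out over wild type, ± SE. The script was tested on simulated counts. Depth was 19919095 to 23669252 exon reads, so 3 reads are 0.123 to 0.160 CPM. Described in full were members past the threshold, the 10 of highest mean RPKM and Nt5e, and from each list up to 3 higher and 3 lower genes by p. Other genes were named to describe a subfamily, and Tbc1d2b was chosen after its values were seen. Alternatives were other scalings and filters, DESeq2 1.42.0, limma-voom (limma 3.58.1), unique exon reads, title numbers as covariates, libraries left out in turn, and libraries summed by near identity or by title stem. Library similarity is edgeR's common biological coefficient of variation of a pair. Promoter windows came from RefSeq, and figures were drawn with matplotlib 3.10.9.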

Additional observations from a re-analysis of the deposited data

How the results depend on the processing

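With 6 libraries, of which 2 pairs are nearly identical, the calls rest on few independent samples. Summing those pairs left 0 members higher, 0 lower, 0 genes of the other lists and 1 member in intron reads. Of all genes, 17 of 13041 were then called in exon reads and 162 of 11424 in intron reads. Leaving out 1 library at a time gave 3 to 15 members higher, 1 to 11 lower, 16 to 97 genes of the other lists and 3 to 19 members in intron reads, the highest counts all without knock-out library 1. The share of all genes called in exon reads then ran from 8.71% to 66.2%, also highest without knock-out library 1. In intron reads, 514 to 3559 of all genes were called. DESeq2 called 65 genes of the other lists, against 40, and 36.8% of all genes, against 27.8%. Summing libraries of 1 title stem gave 15 members in intron reads, against 9, and 2020 of all genes, against 1280. Of all calls, 50.7% were higher with TMM scaling and 40.1% with total counts, where 8 members rose and 7 fell and the median of all genes moved from 0.02 to -0.08. With the number after the letter p in the titles as a covariate, Adamts1 (2.43, adjusted p = 0.131) and Adamts5 (0.82, adjusted p = 0.0566) missed the threshold in edgeR, and with the last title number Adamts1 did (3.03, adjusted p = 0.0594). None of the 15 called members, Mmp14, Timp2 or Timp3 changed sign under any alternative run. For the 15 called members a change was hardly possible, since their genotypes did not overlap. Without wild-type library 5, Mmp19 (0.09) and Adamts6 (-0.09) changed sign. So did Adamts6 with title stems summed (-0.01) and Adamts12 with the p number as a covariate (-0.01). Title stems summed gave 13 members higher and 6 lower, beside 29.0% of all genes called. The replicate numbers of the sample descriptions (1 to 3 and 4 to 6) pair no libraries, and the title numbers that both genotypes share entered as covariates. Members with under about 50 reads, such as Mmp27, are limited by depth.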
